A study of Bos taurus with 10 samples.

Results

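The genes described here encode enzymes of glycolysis, the proteins that carry, reduce or oxidise pyruvate, and enzymes of the citrate cycle. They were taken by gene name, under a rule that uses no signal values though earlier results of these data were known: 33 genes, of 25325 distinct gene names on the array, measured by 107 probes of 60 bases. RNA of 10 embryo samples was hybridised to 1-colour bovine oligonucleotide arrays, 1 array per sample. The embryos were flushed from the uterus of superovulated cows on day 7 after the first of a pair of inseminations, given with frozen and thawed semen at 108 and 120 h of the superovulation treatment. The vehicle group (n = 2) carries the label DMSO, the solvent. In the other groups senktide, a peptide that activates the tachykinin receptor NK3, was infused intravenously for 2 h from hour 48 of that treatment, at 30 nmol/min (n = 4) or 300 nmol/min (n = 4). The study's question was the effect of the infusion on embryo quality and developmental stage. Whether samples within a group are from different cows, and the number of embryos in each, is not in the labels; p-values therefore reflect only the spread among these samples, which may be technical. In the labels the RNA extraction text mentions endometrium, but the sample titles and tissue fields say embryo, the name used here.

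The signals carried the defining transcripts of the blastocyst in part. KRT8, KRT18, KRT19, GATA2, GATA3 and TFAP2C of the trophectoderm and SOX2 of the inner cell mass were well above background on all 10 arrays. In contrast, CDX2 and NANOG were so on none, ELF3 of the trophectoderm on 2 and POU5F1 on 4. For ELF3 and POU5F1 these included 0 vehicle arrays. Well above background is the scanner software's own flag for a spot that stands clear of its local background. The arrays were dim, with 7.17% to 19.6% of probe spots so flagged, and they lay on 3 slides. Every group had 1 array on slide 1 and 1 on slide 2, and the brighter slide 3 carried replicates 3 and 4 of both senktide groups.

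Glycolysis splits glucose in the cytosol and yields pyruvate, which lactate dehydrogenase can reduce to lactate. Pyruvate otherwise enters the mitochondrion through its carrier, is oxidised by pyruvate dehydrogenase and feeds the citrate cycle through citrate synthase. Mammalian embryos rely mainly on pyruvate and lactate during early cleavage and take up more glucose as the blastocyst forms. Several steps have isozymes from separate genes, so which isozyme is transcribed is a basic description of the tissue.

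Some of the probes are shown first because detection differed between probes of the same gene. A pair of probes within the coding sequence of GAPDH, which oxidises glyceraldehyde phosphate, overlap by 44 bases and differ at 3 of them, marked here in capitals. The first was well above background on 10 arrays and the second on 5.
GAPDH, base 973 of the transcript: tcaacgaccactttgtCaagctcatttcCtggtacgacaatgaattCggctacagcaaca
GAPDH, base 990 of the transcript: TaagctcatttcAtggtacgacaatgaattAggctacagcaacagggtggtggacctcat
In Btau_3.1, the genome build of the array, they lie on the minus strand at chr5:10853755-10853916 and chr5:10853739-10853899. Both span an intron of that build, since their coordinates cover 162 and 161 genomic bases, more than the 60 of a probe. The coordinates of the second leave out its first base, marked as a mismatch. The next sequences are coding-region probes of isozyme genes, measured and dark. Both LDHB probes and the probe of MDH1, the cytosolic malate dehydrogenase, were well above background on all 10 arrays, whereas the probes of LDHA, HK2 and PFKM shown here were so on none. The LDHA probe shown lies 1014 bases before the last one and is the only dark probe of that gene: its 2 others were well above background on 9 and 8 arrays.
LDHB, base 796: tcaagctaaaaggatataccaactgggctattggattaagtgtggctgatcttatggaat
LDHB, base 878: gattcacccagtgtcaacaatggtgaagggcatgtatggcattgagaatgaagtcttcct
MDH1, base 600: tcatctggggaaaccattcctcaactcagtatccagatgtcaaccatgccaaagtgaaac
LDHA, base 555: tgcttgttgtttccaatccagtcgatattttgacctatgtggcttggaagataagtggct
HK2, base 2224: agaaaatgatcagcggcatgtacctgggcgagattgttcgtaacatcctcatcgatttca
PFKM, base 1942: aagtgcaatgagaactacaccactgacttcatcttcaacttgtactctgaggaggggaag
The LDHB probes lie on the plus strand at chr5:94982263-94982322 and, across an intron, chr5:94982345-94983675, and MDH1 on the plus strand at chr11:63833596-63833655. LDHA (chr29:27564148-27564869, across an intron), HK2 (chr11:10059476-10059535) and PFKM (chr5:35332818-35332877) lie on the minus strand.

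Most of the central carbon route was detected. Each gene is represented by its brightest probe over the 10 arrays. By that probe 17 of the 33 genes were well above background on all 10 arrays, 7 on 8 or 9 arrays, 2 on 5 to 7, 1 on 1 array and 6 on none. Counted by probe, 27 of 107 were so on all arrays (5.71% of all probes on the array were) and 50 on none (74.4% of all probes).

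Upper glycolysis, from glucose phosphorylation to triose phosphates, was measured by 10 genes, of which 3 were detected on every array: HK1, a hexokinase that traps glucose, GPI, which converts glucose 6-phosphate to fructose 6-phosphate, and ALDOA, an aldolase that splits the hexose. PFKL, the liver-type phosphofructokinase, was well above background on 9 arrays and ALDOC on 5. Neither PFKM nor PFKP, the muscle and platelet types, was so on any array by any of their 6 and 2 probes. PFKFB3, which makes the activator of phosphofructokinase, was on none with 3 probes, and HK2 was on none with its 1 probe. TPI1, triose phosphate isomerase, a step of the pathway with no isozyme on the list, was well above background on 1 array, of the vehicle group, through 1 of its 3 probes.

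Lower glycolysis and pyruvate handling were detected more fully. GAPDH, PGK1 and PGAM1 (the oxidation, the first ATP-forming step and the mutase) and ENO1, an enolase, were well above background on 10 arrays, and PKM, pyruvate kinase, listed on the array as PKM2, on 8. ENO2, the neuronal enolase, was on none with 2 probes. Of the lactate dehydrogenase subunits, LDHB was well above background on all 10 arrays by 4 of its 5 probes, and LDHA was so on 9 and 8 arrays by 2 of its 3. The pyruvate carrier subunits MPC1 and MPC2 (BRP44L and BRP44 on the array) were on 10 and 8 arrays, and PDHA1 and PDHB, the subunits of the pyruvate dehydrogenase E1 component, on 10 each. PDK1, a kinase that inhibits that complex, was on none with 3 probes.

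Every citrate cycle gene on the list was measured on at least 7 arrays. CS (citrate synthase), IDH3A (a subunit of the NAD-linked isocitrate dehydrogenase), SUCLG1 (a succinyl-CoA ligase subunit), FH (fumarase), MDH2 (the mitochondrial malate dehydrogenase) and MDH1 were on 10 arrays, IDH3B on 9, IDH2, the NADP-linked mitochondrial isocitrate dehydrogenase, on 8, and OGDH, of the 2-oxoglutarate dehydrogenase complex, on 7. GNPDA1, which deaminates glucosamine 6-phosphate to the glycolytic intermediate fructose 6-phosphate, was on 9.

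**Figure D1:**
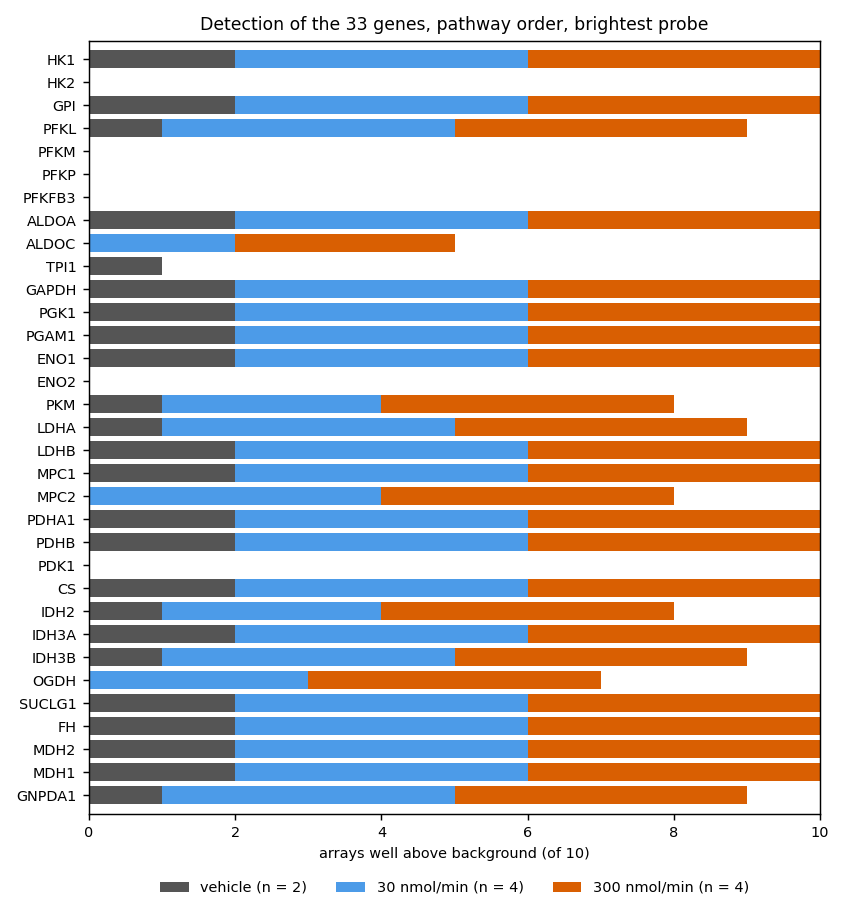
Number of the 10 arrays on which the brightest probe of each gene was well above background (x axis), for the 33 genes in pathway order from glucose to malate with GNPDA1 last (y axis); colours split each bar into vehicle, 30 and 300 nmol/min arrays. Bars reach 10 for 17 genes, and 6 genes (HK2, PFKM, PFKP, PFKFB3, ENO2 and PDK1) have none.

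Detection followed the place of the probe along the transcript. For 28 genes the brightest probe had others on the same transcript record, and in 20 it was the one nearest the 3′ end. Among the 15 such genes detected on all arrays, 24 probes lay within 300 bases of the last probe and 20 of these were well above background on all arrays, 0 on none. Farther upstream lay 29 probes, with 5 on all arrays and 15 on none. These counts include the brightest probe of each of the 15 genes, on all arrays because the genes were chosen so. Of those brightest probes 12 were the last, so part of the contrast was set by the choice of genes. The farthest probes of genes whose last probe was measured everywhere were therefore often dark. A gene with no measured probe, such as PFKM, is not shown to lack its transcript. For PFKM the last probe on the record, at base 2742, was dark as well. The HK2, PFKM and LDHA probes printed above start at bases 2224, 1942 and 555 of their records, and the highest starts among the probes of PFKM and LDHA were 2742 and 1569. The polyadenylation hexamer AATAAA was on the printed strand of 5 of the 17 brightest probes of genes detected on all arrays (29.4%). It was in 24.5% of all probes well above background on all arrays, in 6.67% of those on none and in 9.35% of all probes, and its reverse complement TTTATT in 3.46% of all probes.

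**Figure D2:**
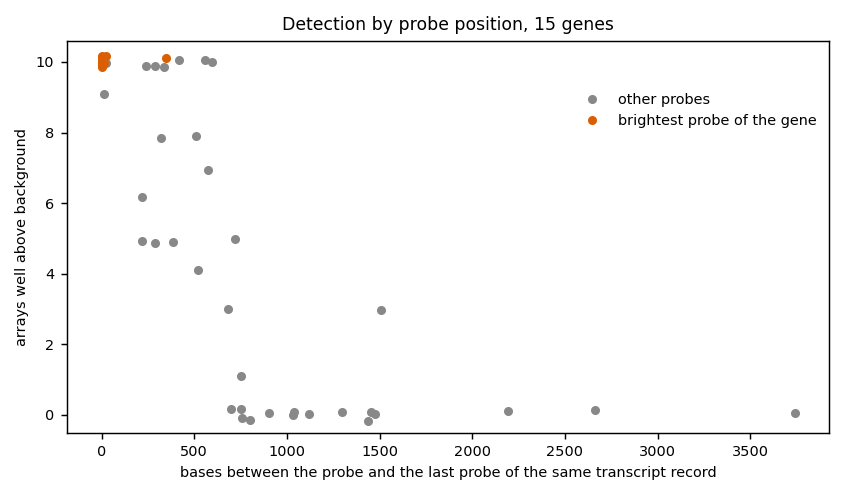
Arrays on which each probe was well above background (y axis, spread slightly to separate points) against the bases between it and the last probe of the same transcript record (x axis), for the 15 genes detected on all 10 arrays with over 1 such probe. Brightest probes, in orange, sit at 10 arrays because the genes were chosen so, and 12 of the 15 are the last probe. Of the 29 probes over 300 bases upstream 15 are at 0.

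Levels are log2 signals relative to each array's scale, the 75th percentile of the 2492 probes that were well above background on every array, so 0 is that percentile and 1 unit is a 2-fold difference. They are compared between arrays for 1 probe, never between genes. The 17 genes detected on all arrays varied little, with SDs over the 10 arrays from 0.125 (SUCLG1) to 0.329 (CS) and a median of 0.228, against 0.237 for all probes detected on all arrays. The span from lowest to highest array ran from 0.40 (SUCLG1) to 1.15 (CS). In bulk samples of embryos, fewer cells of a type and less RNA per cell cannot be told apart.

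Some genes of each stretch of the route show the spread. MDH2, which regenerates oxaloacetate, stood at 2.24 and 2.50 in the vehicle samples, at 2.30, 2.34, 2.41 and 2.10 with the lower dose and at 2.14, 2.11, 2.21 and 2.45 at 300 nmol/min. LDHB stood at 1.57 and 0.91 in the vehicle samples, at 1.23, 1.42, 1.11 and 1.05 at 30 nmol/min, and at 1.28, 1.07, 1.20 and 1.13 at 300 nmol/min. All 8 senktide values of LDHB lay between its vehicle values, and those of MDH2 overlapped them. ENO1 stood at −0.50 and −0.39, then −0.47, −0.43, −0.55 and −0.60 in the lower dose group, and −0.34, −0.85, −0.20 and −0.71 in the higher, where its samples were the most spread. PGAM1 stood at 0.38 and 0.90 in the vehicle samples, at 0.49, 0.42, 0.64 and 0.70 with 30 nmol/min and at 0.39, 0.04, 0.64 and 0.78 at 300 nmol/min, all groups overlapping. HK1, GPI, PDHA1, PDHB, IDH3A, SUCLG1, FH and MDH1 overlapped between all groups as well.

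**Figure D3:**
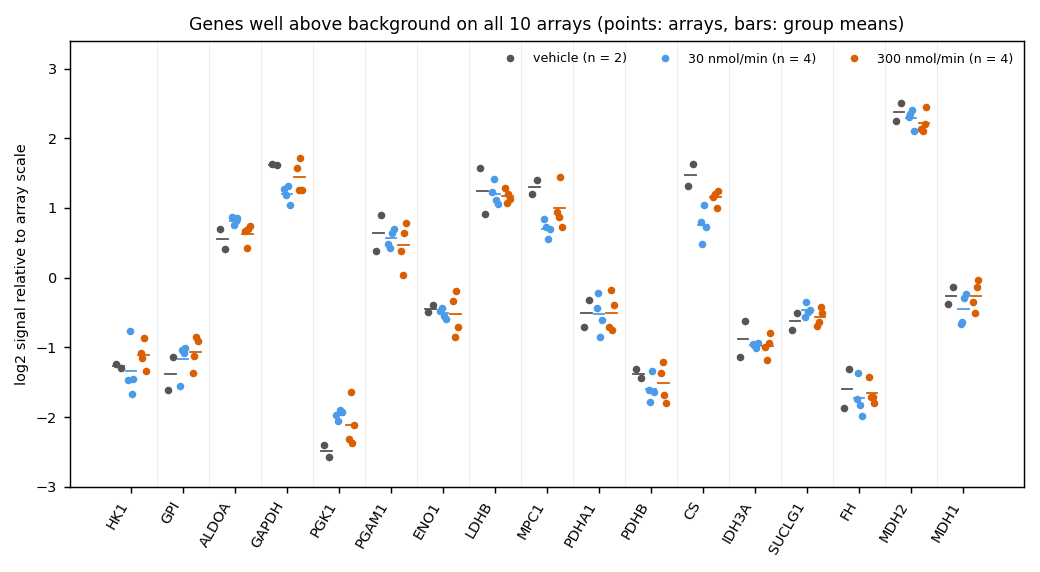
Log2 signal relative to the array scale (y axis) of the 17 genes well above background on all 10 arrays (x axis, pathway order); points are samples, short lines group means, grey for vehicle, blue for 30 and orange for 300 nmol/min. Within most genes the groups overlap; on this scale the vehicle values of CS, 1.31 and 1.63, lie above all 8 senktide values, a direction that turns under scalings by all probes, and those of PGK1, −2.40 and −2.58, lie below them.

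At 30 nmol/min no gene of the route passed the threshold against vehicle. By limma, 0 of the 26 tested genes had an adjusted p under 0.05, as did 0% of all 8936 tested probes; 4 genes (15.4%) had an unadjusted p under 0.05, near the 11.3% of all tested probes. The groups did not overlap for 6 genes (23.1%, all probes 19.5%), with ALDOA, PGK1 and GNPDA1 higher and GAPDH, MPC1 and CS lower. Counting any difference, 10 genes were higher and 16 lower, with a median of −0.07 against −0.11 for all tested probes. These directions hold for this scale. Scaling by all probes on the array, to their 75th percentile or to their median, moved the median difference of the tested probes to 0.95 and 1.21, and all 26 genes were then higher. With 7.17% to 19.6% of probe spots well above background per array, those 2 scales rest largely on dim signals. Quantile normalization gave 13 higher and 13 lower, and normexp background correction with quantile normalization 18 and 8. Without vehicle replicate 1 the difference of IDH3B was 2.24. That fit leaves a lone vehicle sample, assumed to vary like the other groups, in which the IDH3B probe was not well above background.

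The largest difference at this dose was that of GNPDA1. Its brightest probe stood at −2.11 and −1.68 in the vehicle samples and at −0.54, −0.15, −1.01 and −0.40 at 30 nmol/min, so every senktide sample exceeded both vehicle samples. The difference was 1.37 (SE 0.27, limma adjusted p = 0.184), and 1 of the vehicle samples was well above background. CS, which joins acetyl-CoA to oxaloacetate, stood at 1.31 and 1.63 against 0.80, 0.48, 1.04 and 0.72, without overlap. Its difference was −0.71 (SE 0.21, limma adjusted p = 0.308), and 0.35 (SE 0.77) with the 75th percentile of all probes as the scale. MPC1 stood at 1.20 and 1.40 against 0.84, 0.72, 0.56 and 0.70, also without overlap. Its difference was −0.60 (SE 0.23, limma adjusted p = 0.396), and 0.46 (SE 0.76) under that other scaling. The sign of CS and MPC1 thus rests on the scale, and under the other scaling both differences were smaller than their SEs. PGK1 stood at −2.40 and −2.58 against −1.97, −2.06, −1.90 and −1.93, every senktide sample higher, with a difference of 0.52 (SE 0.23, limma adjusted p = 0.440). Its second tested probe, well above background on 4 arrays, differed by −0.11.

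Within slides the sizes varied. On slides 1 and 2 the 30 nmol/min sample differed from its vehicle sample by 1.57 and 1.53 for GNPDA1, by −0.52 and −1.15 for CS, by −0.36 and −0.68 for MPC1 and by 0.43 and 0.52 for PGK1. GAPDH, a gene often used as a reference, stood at 1.64 and 1.61 in the vehicle samples against 1.28, 1.18, 1.31 and 1.04, and all 4 of its tested probes were lower on this scale (−0.42, −0.19, −0.51 and −0.49), a direction that turned under both scalings by all probes. ALDOA stood at 0.69 and 0.41 against 0.87, 0.75, 0.81 and 0.86, while 1 of its 2 other tested probes, well above background on 6 arrays, differed by −0.85.

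At 300 nmol/min again 0 of the 26 genes passed the threshold against the same vehicle samples, where 0.0112% of tested probes did (1 probe). An unadjusted p under 0.05 was reached by 2 genes, PFKL and GNPDA1 (7.69%, all probes 13.8%), and 5 did not overlap between groups (19.2%, all probes 25.5%): PFKL, PGK1, LDHA and GNPDA1 higher and CS lower. Any difference counted, 14 were higher and 12 lower with a median of 0.00, against −0.11 for all tested probes. With either scaling by all probes all 26 were higher, and with normexp and quantile normalization 18 were higher and 8 lower.

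GNPDA1 stood at −0.47, −0.46, −0.62 and −0.15 at this dose, again above both vehicle samples. The difference was 1.47 (SE 0.27, limma adjusted p = 0.153), and 1.64 and 1.22 within slides 1 and 2. PFKL, which commits hexose to glycolysis, stood at −2.96 and −2.43 in the vehicle samples, 1 of them well above background, and at −2.04, −1.72, −1.71 and −2.25 at 300 nmol/min, all higher. Its difference was 0.76 (SE 0.24, limma adjusted p = 0.266), and 0.92 and 0.70 within slides 1 and 2. At 30 nmol/min PFKL stood at −2.04, −2.45, −2.21 and −2.09, overlapping the vehicle values. PGK1 stood at −2.31, −1.64, −2.38 and −2.11, a difference of 0.38 (SE 0.23, limma adjusted p = 0.453), of which slide 1 gave 0.09 and slide 2 0.94.

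IDH3B, a subunit of the NAD-linked isocitrate dehydrogenase, had a large difference that rested on 1 vehicle sample. It stood at −1.57 and −4.28 in the vehicle samples and at −2.03, −2.12, −1.86 and −1.82 at 300 nmol/min, between the vehicle values. The vehicle value of −4.28 was not well above background. The difference was 0.97 (SE 0.58, limma adjusted p = 0.450), and −0.46 and 2.17 within slides 1 and 2. Without vehicle replicate 1 it was 2.33, set against that dim value alone, and −0.39 without vehicle replicate 2. The second tested IDH3B probe, on the same transcript, differed by −0.32. In vehicle replicate 2 that second probe was well above background, at −2.85.

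**Figure D4:**
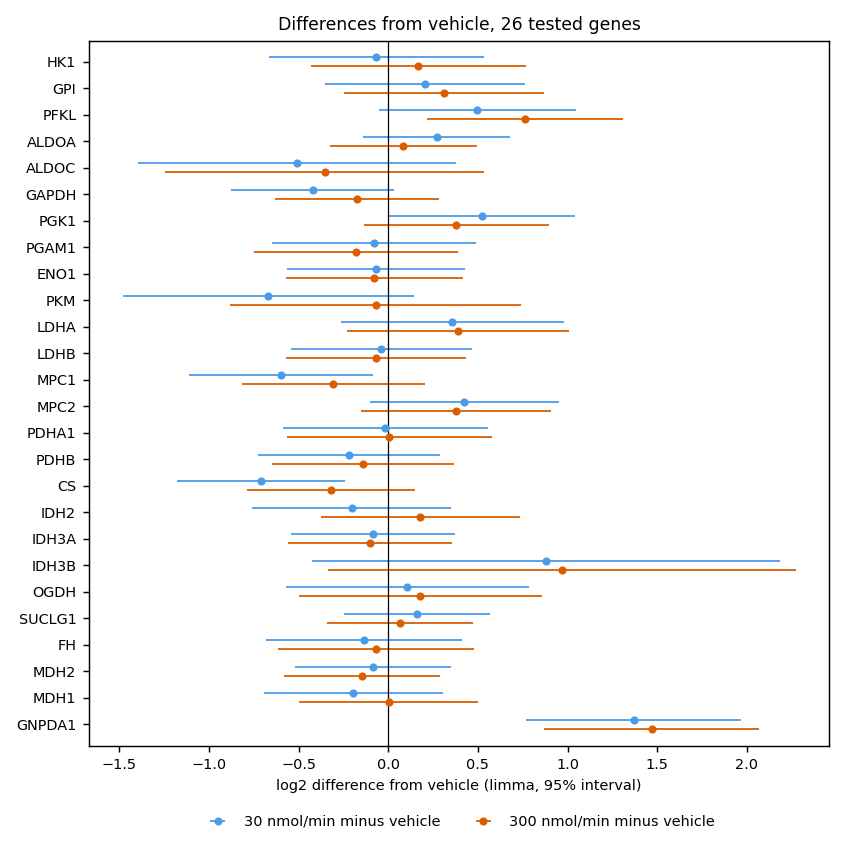
Log2 difference from vehicle (x axis) with its 95% interval from limma, for the 26 tested genes (y axis, pathway order), at 30 nmol/min in blue and 300 nmol/min in orange; both doses are set against the same 2 vehicle samples. Values are on the main scale, and its negative differences turn positive under both scalings by all probes; GNPDA1 lies farthest from 0, at 1.37 and 1.47, and IDH3B has the widest intervals.

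For the 17 genes detected on all arrays the intervals set limits on what could have been missed on this scale. At 300 nmol/min their differences from vehicle ran from −0.32 (CS) to 0.38 (PGK1), and the 95% intervals of all 17 lay within 1 log2 unit of 0. At 30 nmol/min they ran from −0.71 (CS) to 0.52 (PGK1), with 14 of 17 intervals within that limit. Standard errors were 0.182 to 0.268.

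Between the doses the genes also did not differ past the threshold. By limma 0 of 26 genes were called (0% of tested probes), 1 had an unadjusted p under 0.05 (CS, 3.85%, all probes 3.01%), and 1 did not overlap (ALDOA, lower at the higher dose, 3.85%, all probes 2.7%). Of the 26, 17 were higher and 9 lower at 300 nmol/min, with a median of 0.07 against −0.01 for all tested probes; with either scaling by all probes, 24 were higher and only ALDOA and PGK1 lower. CS stood at 1.16, 1.20, 1.01 and 1.24 at 300 nmol/min, a difference of 0.39 (SE 0.17, limma adjusted p = 0.9997), and 0.36, 0.73 and 0.24 within slides 1, 2 and 3. PKM stood at −3.18, −3.94, −2.64 and −3.03 at the lower dose and −2.80, −2.71, −2.19 and −2.70 at the higher, a difference of 0.60 (SE 0.30, limma adjusted p = 0.9997). IDH2 stood at −2.72, −2.97, −2.86 and −3.20 and then at −2.71, −2.91, −2.13 and −2.46, a difference of 0.38 (SE 0.20, limma adjusted p = 0.9997), of which slide 3 gave 0.73 and slides 1 and 2 gave 0.00 and 0.06. MPC1 differed by 0.29 (SE 0.19, limma adjusted p = 0.9997). For the 17 genes detected on all arrays, differences between doses ran from −0.19 (ALDOA) to 0.39 (CS), with all 17 intervals within 1 log2 unit of 0.

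The probes of GNPDA1 did not give 1 answer. Its 4 probes start at bases 748, 1033, 1826 and 2180 of 1 transcript record and were well above background on 7, 9, 3 and 6 arrays. The brightest, at base 1033, lies at chr7:52546640-52546699 on the minus strand of Btau_3.1, with 1147 bases between it and the last probe. The probe within the coding region is shown because its differences were the smallest of the 4.
GNPDA1, base 748: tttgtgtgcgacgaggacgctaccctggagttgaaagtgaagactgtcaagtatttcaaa
It lies on the minus strand at chr7:52547596-52547655. The probes at bases 748, 1033, 1826 and 2180 differed from vehicle by 0.33, 1.37, −1.32 and 0.93 at 30 nmol/min. At 300 nmol/min they differed by 0.32, 1.47, −1.43 and 1.20. Neither vehicle sample was well above background for the probes at bases 748 and 2180, and the probe at base 1826 was so in 1 sample of each group. The mean over the 4 probes differed by 0.33 and 0.39 at the doses. The brightest probe passed the threshold with quantile normalization (1.51 and 1.60, limma adjusted p = 0.0486 and 0.0345) and with normexp background correction and quantile normalization (0.78 and 0.76, adjusted p = 0.0419 and 0.0387). Over all alternatives its adjusted p ran from 0.0419 to 0.891 at 30 nmol/min and from 0.0345 to 0.593 at 300 nmol/min, and its difference kept its direction in all 21 settings at each dose.

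**Figure D5:**
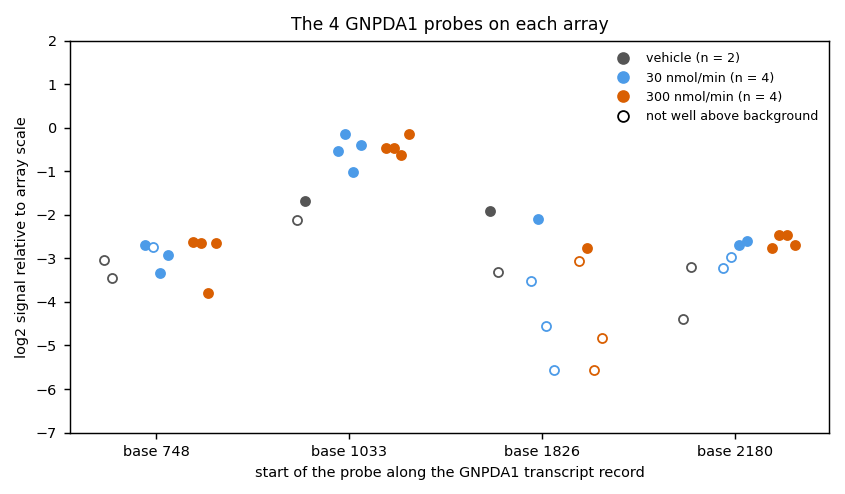
Log2 signal relative to the array scale (y axis) of the 4 GNPDA1 probes, ordered by their start along the transcript record (x axis); points are samples, grey for vehicle, blue for 30 and orange for 300 nmol/min, and open points were not well above background. At base 1033 all 8 senktide samples lie above both vehicle samples, at base 748 the groups overlap, and at base 1826 only 1 sample of each group was measured.

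Agreement between probes was also partial for the other genes. Of 17 genes with over 1 tested probe, all tested probes of a gene shared a direction in 8 at 30 nmol/min, 6 at 300 nmol/min and 9 between doses. Both lactate dehydrogenase A probes were higher at each dose (0.36 and 0.08 at 30, 0.39 and 0.23 at 300 nmol/min), and the 4 LDHB probes differed by −0.04, −0.18, −0.27 and 0.04 and by −0.07, −0.19, −0.17 and −0.04. The ENO1 probes, whose starts lie 11 bases apart, differed by −0.07 and 0.44 at 30 nmol/min and by −0.08 and 0.40 at 300 nmol/min.

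The number of genes detected by their brightest probe was compared between arrays. The vehicle arrays had 19 and 22 of the 33 genes well above background, the arrays at 30 nmol/min 25, 22, 26 and 26 and those at 300 nmol/min 25, 26, 26 and 26, means of 20.5 ± 2.12 (SD, n = 2), 24.75 ± 1.89 (n = 4) and 25.75 ± 0.50 (n = 4). Against vehicle the differences were 4.25 and 5.25 genes (exact two-sided permutation p = 0.267 and 0.133; with 15 arrangements and the smaller tail doubled, 0.133 is the smallest possible), and the doses differed by 1 gene (exact permutation p = 0.714, smallest possible 0.0286). Counting a gene as detected by any of its probes gave 21 and 23 for the vehicle arrays and the same numbers for the others, so that the differences from vehicle were 2.75 and 3.75 genes. The scanner software's weaker flag, positive and significant against background, was met by the brightest probe of 29 or 30 genes on the vehicle arrays, 29 or 30 at the lower dose and 30 or 31 at the higher. The share of all probes well above background moved with it, at 8.29%, 14.5% and 15.5% in the groups, and its part in the result was not tested. Slide 1 gave 19, 25 and 25 genes and slide 2 gave 22, 22 and 26 for vehicle, 30 and 300 nmol/min, while all 4 arrays of slide 3 gave 26.

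MPC2 and OGDH were well above background on no vehicle array by any probe, and TPI1 on no senktide array. For such a gene the mean of the brighter group was compared with the higher of each dim signal and that array's lowest signal well above background. For MPC2, on all 8 senktide arrays, both vehicle signals were the higher, so the ratios are those of the measured signals, 1.34-fold at 30 and 1.30-fold at 300 nmol/min. The 95% intervals of these log2 differences, −0.10 to 0.95 and −0.15 to 0.91, included 0 (limma adjusted p = 0.497 and 0.461). With the 75th percentile of all probes as the scale, the ratios were 2.79 and 2.93, and the other tested MPC2 probe differed by −0.77 and −0.69. OGDH, on 3 and 4 arrays of the doses, had no bound above 1. The brightest ALDOC probe was well above background on 0 vehicle, 2 and 3 arrays, while another of its probes, at base 342, was so on 1 vehicle array and on no senktide array. For TPI1 this comparison gave vehicle ratios of 3.18-fold and 3.93-fold over 30 and 300 nmol/min. They are not lower bounds, because the vehicle mean includes replicate 2, where TPI1 was not well above background. That value, −3.13, lay below the −2.55 of 30 nmol/min replicate 2, so these groups overlapped. The ratios were 1.53 and 1.74 with the 75th percentile of all probes as the scale, and 1.27 and 1.46 with their median. Without a filter on dim probes, the median difference from vehicle over all probes was −1.31 and −1.47 on the main scale. TPI1 itself was not tested.

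Other genes of the same and joining pathways (the pentose phosphate route, further citrate cycle subunits, pyruvate dehydrogenase kinases and aspartate transaminases among them) were taken as a list of 59 on the array. Of these 22 were tested, 12 were well above background on all arrays and 32 on none, and 0 passed the threshold in any comparison. The 12 included PC, which carboxylates pyruvate to oxaloacetate, SDHA, SDHC and SDHD of succinate dehydrogenase, and TKT, TALDO1, PGD and RPIA of the pentose phosphate route. Against vehicle 12 of 22 were higher at 30 and 9 at 300 nmol/min, and with either scaling by all probes all 22 were. Between the doses 11 were higher at 300 nmol/min, and 16 or 15 with the 75th percentile or the median of the whole array as the scale. Only PDK3, a pyruvate dehydrogenase kinase, and SUCLA2, a succinyl-CoA ligase subunit, had an unadjusted p under 0.05 at each dose against vehicle (9.09%, against 11.3% and 13.8% of all tested probes), and GAPDHS between doses (4.55%, against 3.01%). All 3 were well above background on no vehicle array, PDK3 on 2 and 3 arrays of the doses, SUCLA2 on 3 and 4 and GAPDHS on 2 and 2, so no difference from vehicle is given for them.

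Transcripts of other cells that a uterine flush could hold were dim in part. OVGP1 and PAEP of oviduct and uterine epithelium, COL1A1 and VIM of stroma, CD68 and S100A8 of leukocytes, HBB of blood, and CYP19A1, FSHR and INHA of the follicle were well above background on no array. LYZ was so on all 10. CLU was so on 0 vehicle, 4 and 3 arrays, PTPRC on 0, 2 and 3, ITGB2 on 0, 2 and 2, HBA on 0, 2 and 2, COL1A2 of stroma on 0, 1 and 2, DCN of stroma on 0, 0 and 2, STAR of the follicle on 0, 1 and 1 and MUC1 of epithelium on 0, 1 and 0, in the order vehicle, 30 and 300 nmol/min. The summed level of the 5 leukocyte genes, on the linear scale of the array percentile, was 0.413 to 0.421 in the vehicle samples, 0.260 to 0.430 at 30 and 0.313 to 0.429 at 300 nmol/min. For the 4 epithelial genes it was 0.215 to 0.465, 0.0800 to 0.357 and 0.0541 to 0.298. For the stroma genes it was 0.248 to 0.538, 0.0622 to 0.278 and 0.0932 to 0.239. For blood it was 0.119 to 0.143, 0.0845 to 0.190 and 0.0559 to 0.0880, and for the follicle 0.214 to 0.234, 0.0579 to 0.413 and 0.0591 to 0.175. No gene of these 4 lists was well above background on a vehicle array, so their vehicle sums are of dim signals. The part of other cells in the results was not tested.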

How the data were processed

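The deposited scanner files give 1 intensity per spot, which per the file headers was processed by Agilent Feature Extraction 11.5.1.1 (10.5.1.1 per the submitters' processing notes), background-subtracted and not scaled between arrays. Their flags, deposited as other values coded 0 or 1, mark spots well above background and outliers. The deposited series matrix holds log2 values, used as an alternative; at least 99.96% of its values per array lay within 0.01 of log2 signal minus the array's 75th percentile and the probe's median over arrays, so its scale, centring and direction are known, and its column medians were 0.22 and 0.12 for vehicle, 0.045, 0.066, −0.13 and −0.31 for the lower dose, then 0.16, −0.18, −0.28 and −0.23 for the higher.

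Here spots of a probe were averaged without outlier spots, log2 was taken and each array's 75th percentile, over the 2492 probes that were well above background everywhere, was subtracted. A probe was tested if so flagged on 2 or more arrays, which held for 8936 of 43653. The test was limma 3.58.1 in R 4.3.3 (lmFit, then eBayes), 1 coefficient per group, 7 residual degrees of freedom, Benjamini-Hochberg adjustment and a threshold of 0.05. The fit was checked on simulated data with known shifts at 300 nmol/min against vehicle. Of 100 probes shifted by 1 log2 unit 28 passed the threshold, and of 100 shifted by 3 units 84 did, with 3 false calls. Most 2-fold changes were thus missed in that check. Its noise was independent between arrays, whereas senktide samples on 1 slide deviated together in these data. The check therefore does not give the rates of missed or false calls under shared deviations. Python 3.11.15 with pandas 2.3.3 did the rest. No spot was saturated (0), and the number of arrays limits the precision.

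A gene is represented by its brightest probe. Probe names came from the files; of 107 member probes, 91 matched a RefSeq accession of the same symbol (ARS-UCD2.0, names only), 0 another, and 16 accessions were not in that table. Fitted differences are given for the 4 tested genes with the smallest p per comparison, and further probes or genes only where probes of a gene are compared or groups did not overlap. The members and lists were chosen with earlier results of these data known.

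Same-numbered samples of the senktide groups deviated together from their group means (r = 0.487, 0.494, 0.565 and 0.574), which met the check for pairing. Each of these pairs also shared a slide, so the check cannot tell replicate number from slide. Samples with different numbers deviated together about as closely on slide 3 (0.544 and 0.492) and between slides 1 and 2 (0.413 and 0.417). They deviated oppositely between slide 3 and the others (−0.472 to −0.531). Alternatives were other scalings, normexp, quantile normalization, filters on dim probes, slide and replicate as blocks, slides holding every group, the mean over probes, leaving out each sample, the matrix, and a floor on dim values chosen after seeing the data.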

Additional observations from a re-analysis of the deposited data

Results flagged for a closer look

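In 54 groups of 4 samples tested for a sample far from the others, 3 were found, where chance gives about 2.7. GPI stood at −1.56 in 30 nmol/min replicate 1, below the other 3 samples of its group (−1.08 to −1.01). PKM stood at −2.19 in 300 nmol/min replicate 3, above the other 3 (−2.80 to −2.70). At 300 nmol/min, 25 genes were well above background on the array of replicate 1 and 26 on each of the other arrays.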

How the results depend on the processing

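Of 258 fitted differences recomputed under the alternatives, 246 kept their direction and their side of the threshold, 5 passed it newly and 7 turned. Of 132 recomputed counts of genes called or higher, 116 stayed within 1.5 times the value reported and 16 did not. The differences in detected genes per array ran from 0 to 6 at 30 nmol/min, 1 to 6.75 at 300 nmol/min and 0 to 4 between the doses. The count of tested genes higher than vehicle was set by the scaling: 10 of 26 at 30 nmol/min and 14 at 300 nmol/min became 26 and 26 with the 75th percentile of all probes, the median of all probes or the deposited matrix, 18 at 30 nmol/min with normexp and quantile normalization, and 4 and 7 of 17 with only probes well above background on all arrays (9 of 17 between the doses, from 17 of 26). CS at 30 nmol/min turned to 0.35, 0.61 and 0.35, and MPC1 to 0.46, 0.72 and 0.46, with the 75th percentile, the median and the matrix. With the 75th percentile and the median the SEs were larger than these values, at 0.77 and 0.89 for CS and 0.76 and 0.88 for MPC1. The count of genes past the threshold rose from 0 to 1 (GNPDA1) at each dose with quantile normalization and with normexp and quantile normalization, where 107 and 145, and 35 and 107, of all probes passed at 30 and 300 nmol/min. Leaving out 1 sample at a time gave 0 to 1 genes at each dose: without vehicle replicate 1 it was IDH3B, at 2.24 and 2.33, among 34 and 32 of all probes; without vehicle replicate 2, 36 and 50 of all probes passed and 0 of these genes. At 300 nmol/min IDH3B ranged from −0.39 to 2.40 over all settings. Its value in vehicle replicate 2, the only vehicle sample left without replicate 1, was not well above background. With the replicate block GNPDA1 differed by 1.44 and 1.54 (limma adjusted p = 0.349 and 0.227), and 0 of the 26 genes passed in each comparison, as without it. Over all tested probes the block took the count from 1 to 0 at 300 nmol/min against vehicle and from 0 to 1 between the doses. The cause of these changes was not tested. Dim signals limit the genes measured on few arrays, and a group of 2 vehicle samples limits every comparison with vehicle.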
